A study of Mus musculus with 8 samples.

Results

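Biliary lineage transcription factors were examined in bipotential mouse embryonic liver (BMEL) cells, a line from embryonic mouse liver that can give rise to hepatocytes or to cholangiocytes. The factors were chosen by symbol, as regulators known from cholangiocytes and hepatoblasts: Sox9, Sox4, Sox17, Onecut1, Onecut2, Hhex, Tbx3, Foxj1 and Pdx1. Of these 9 symbols, 8 had a row among the 18671 genes of the deposited expression table, and Pdx1 had none. Bulk RNA-seq had been performed on 8 samples harvested 48 h after transfection. In 4 samples the cells had received a plasmid for Flag-tagged GRHL2, labelled pGRHL2 (pIGrhl2 in the sample titles), and in the other 4 the pcDNA3 vector as control, with replicates numbered 1 to 4 on each side. All samples shared serum-containing medium with IGFII, EGF and insulin, and collagen-coated dishes. The GRHL2 construct carries human cDNA under an EF1A promoter and also encodes enhanced green fluorescent protein, which the control vector is not described to do, so the groups differ by more than GRHL2. Transfection was transient, the share of cells that took up plasmid is not known, and each value averages over all cells of a dish. The question was whether GRHL2, a regulator of epithelial differentiation, changed the expression of the factors that set the biliary fate of liver progenitors.

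In the embryonic liver, hepatoblasts next to the portal mesenchyme switch on SOX9 and form the ductal plate, from which bile ducts are shaped, whereas the remaining hepatoblasts become hepatocytes. The ONECUT factors and HHEX act early in this choice and in the growth of the liver bud, SOX4 works with SOX9 in duct formation, and TBX3 favours hepatoblast growth and the hepatocyte side. SOX17 is an endoderm and endothelial factor that shapes the extrahepatic biliary system together with PDX1, the homeobox factor of pancreas and duodenum. FOXJ1 is the main activator of motile cilium genes.

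Values are rlog values, a log2 scale on which DESeq2 shrinks the differences of weakly counted genes, less the log2 of transcript length, so levels can be set side by side between genes. A difference of 1 is a doubling, and differences of low genes are understated. Library depth cannot be read from such values. The level with transcript length added back approximates a read number per sample, and it ranged from about 9 reads for Onecut1 and 25 for Sox17 to 1810 for Onecut2. The libraries fell into replicates 1 and 2 on one side and replicates 3 and 4 on the other in each group, with no batch named in the labels. Because same-numbered samples deviated together, as did samples of different numbers within each of these sets, each test was made without and with the replicate number as a block.

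The targeted gene was checked first. Grhl2 values were 6.30, 6.96, 5.65 and 6.05 in GRHL2 replicates 1 to 4 and 4.68, 4.57, 4.42 and 4.44 in the control replicates, so every sample matched its label. The table counts reads on the mouse gene, and how far reads from the human cDNA enter this row is not known. Some genes of the labelled cell type were well expressed, and others were low or had no row. Krt19, a biliary keratin, had a control value of 15.05 ± 0.12 (SD, n = 4), the hepatic nuclear receptor Hnf4a one of 11.16 ± 0.078 (SD, n = 4) and the fetal liver protein gene Afp one of 8.32 ± 0.047 (SD, n = 4). Dlk1 and Gpc3, further hepatoblast markers, had no row, and Cftr and Cldn7, found in mature ducts, were low at 0.72 ± 0.032 and 1.33 ± 0.025 (SD, n = 4). The 15 hepatoblast and hepatocyte markers with a row had a median level of 2.75 over the 8 samples. Alb was at 5.25 ± 0.17 in control cells (SD, n = 4). The mesenchymal gene Vim, at 15.28 ± 0.075 (SD, n = 4), stood above Krt19.

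The factors differed widely in level in the control cells. Hhex was the highest of them, at 8.65 ± 0.20 (SD, n = 4; percentile 72.2 of all genes by mean over the 8 samples), followed by Sox4 at 7.89 ± 0.081 (SD, n = 4) and Foxj1 at 7.51 ± 0.062 (SD, n = 4). Onecut2 at 6.68 ± 0.25 and Sox9 at 6.64 ± 0.21 (SD, n = 4) came next and overlapped, so their order was not resolved. Tbx3 stood at 6.05 ± 0.15 (SD, n = 4). Sox17 at 3.77 ± 0.036 and Onecut1 at 1.80 ± 0.031 (SD, n = 4) were well below. No neighbours in this order other than Onecut2 and Sox9 overlapped among the control samples. In the GRHL2 samples Sox9 (6.99 ± 0.22, SD, n = 4) ranked above Onecut2 (6.92 ± 0.32, SD, n = 4), again with overlap, and Hhex and Sox4 overlapped too. Of the 2 ONECUT genes in the list, the cells thus expressed Onecut2 far above Onecut1, on the scale per transcript length.

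For 4 of the 9 symbols the RefSeq promoter windows, 250 bases before to 50 after the gene start, were at hand (GRCm38.p6). The windows of 3 expressed factors are shown, since they differ in base composition and in how the genes behaved: Sox4, which was higher in the GRHL2 sample of every pair, Hhex, whose pairs moved in opposite directions, and the weakly expressed Onecut1. A link between window and behaviour was not tested. Capitals mark CCAAT boxes and GC boxes (GGGCGG) on either strand. Sox4 lies at chr13:28953650-28953949 (minus strand), Hhex at chr19:37434591-37434890 (plus strand) and Onecut1 at chr9:74861671-74861970 (plus strand).
Sox4: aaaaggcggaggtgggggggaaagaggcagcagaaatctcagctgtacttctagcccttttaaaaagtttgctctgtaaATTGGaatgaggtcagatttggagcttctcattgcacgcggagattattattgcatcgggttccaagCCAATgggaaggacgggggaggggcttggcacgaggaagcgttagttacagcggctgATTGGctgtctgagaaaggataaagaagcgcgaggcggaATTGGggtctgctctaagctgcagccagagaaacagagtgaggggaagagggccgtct
Hhex: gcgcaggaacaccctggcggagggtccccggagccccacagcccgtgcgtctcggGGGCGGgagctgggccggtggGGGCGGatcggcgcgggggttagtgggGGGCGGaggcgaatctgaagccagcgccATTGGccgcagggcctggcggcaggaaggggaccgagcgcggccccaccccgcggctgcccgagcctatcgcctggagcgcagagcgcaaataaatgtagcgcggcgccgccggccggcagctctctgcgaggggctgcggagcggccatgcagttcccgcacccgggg
Onecut1: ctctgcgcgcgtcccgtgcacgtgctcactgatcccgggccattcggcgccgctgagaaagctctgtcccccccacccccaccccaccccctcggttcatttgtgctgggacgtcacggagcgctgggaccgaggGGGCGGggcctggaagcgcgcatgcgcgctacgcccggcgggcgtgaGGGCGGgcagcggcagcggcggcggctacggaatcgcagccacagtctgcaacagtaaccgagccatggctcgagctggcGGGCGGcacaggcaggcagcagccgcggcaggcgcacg
The Sox4 window had 4 CCAAT boxes, no GC box and a GC content of 52.0%. The Hhex window had 3 GC boxes, 1 CCAAT box and 75.7% GC, and the Onecut1 window had 3 GC boxes, no CCAAT box and 73.0% GC. Over all 32851 windows, 37.4% held a CCAAT box and 35.7% a GC box. The paired Grainyhead half-sites AACCGGTT and the looser AACNNGTT, which includes the former and reads the same on both strands, occurred in 0.146% and 4.20% of all windows. Neither was found in the windows of Sox4, Hhex, Onecut1 or Pdx1, and TATAAA was not found there either, against 13.6% of all windows. Sox9, Sox17, Tbx3, Foxj1 and Onecut2 were not among the windows examined.

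Of the 8 factors, 7 had a higher mean in the GRHL2 samples, and 5 (Sox9, Sox4, Sox17, Onecut2 and Tbx3) were higher in the GRHL2 sample of each of the 4 same-numbered pairs. Over all genes, 27.3% were higher in every pair. Only Sox17 passed the test without the block (limma, Benjamini-Hochberg adjustment over all 18671 genes, adjusted p under 0.05), where 10.5% of all genes were called higher, 5.91% lower and 16.4% in either direction. With the replicate block, Sox9, Sox4, Sox17, Onecut2 and Tbx3 were called higher, 5 of 8, against 18.2% of all genes, and no factor was called lower, against 13.9% (32.1% in either direction). Scaling the samples to an equal upper quartile or an equal sum moved the share of higher genes among all calls without the block from 63.9% to 75.9% and 77.0%, and left Sox17 as called. The median log2 fold change of the 8 factors was 0.19, and that of all genes was 0.0066. The factors were proposed with earlier results for Sox9 and Sox4 in these samples known, so their count is not independent evidence of a direction.

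**Figure D1:**
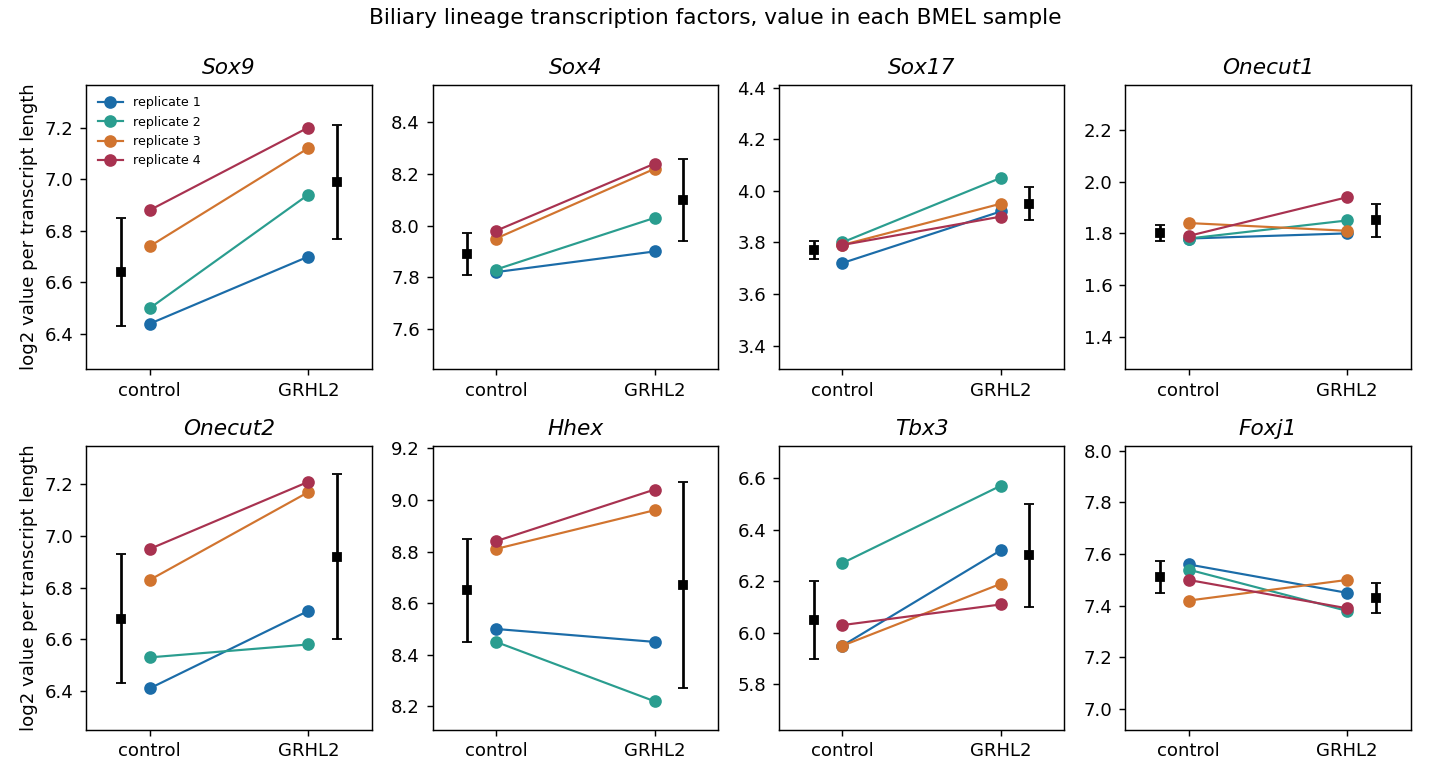
Log2 value per transcript length of 8 biliary lineage transcription factors in each BMEL sample, with lines joining control and GRHL2 samples of the same replicate number and black squares giving the mean ± SD of 4 samples. Each panel spans the same 1.1 log2 units. Lines rise in all 4 pairs for Sox9, Sox4, Sox17, Onecut2 and Tbx3, and only for Sox17 do all 4 GRHL2 samples lie above all control samples.

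Among the SOX factors, Sox9 (ENSMUSG00000000567, GRCm38 chromosome 11, 112782224 to 112787760, plus strand), the earliest marker of the ductal plate, had values of 6.44, 6.50, 6.74 and 6.88 in control replicates 1 to 4. In GRHL2 replicates 1 to 4 it was at 6.70, 6.94, 7.12 and 7.20. The groups overlapped, since GRHL2 replicate 1 lay below control replicates 3 and 4, but within each number the GRHL2 sample was higher, by 0.26, 0.44, 0.38 and 0.32. The log2 fold change was 0.35 (SE 0.12, 95% interval 0.076 to 0.62), or 1.27-fold. Its adjusted p was 0.0805 without the block and 0.000510 with it (SE 0.042, limma). The exact two-sided permutation test over samples gave p = 0.0857, where 0.0286 is the smallest that 4 against 4 allows. Of the fits without the block that leave out 1 sample, those without GRHL2 replicate 1 and without control replicate 4 called it. Replicates 1 and 2 taken alone gave 0.35, as did replicates 3 and 4.

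Sox4 (chromosome 13, 28948919 to 28953713, minus strand) was the most abundant of the SOX factors. Control values were 7.82, 7.83, 7.95 and 7.98, and GRHL2 values 7.90, 8.03, 8.22 and 8.24. The GRHL2 samples were higher by 0.085, 0.20, 0.28 and 0.26 in pairs 1 to 4, and only GRHL2 replicate 1 lay within the range of the control samples. The log2 fold change was 0.20 (SE 0.080), with an adjusted p of 0.112 without the block and 0.00758 with it (limma). Leaving out GRHL2 replicate 1 gave 0.27 with an adjusted p of 0.0404 without the block. A lincRNA gene on the opposite strand, Gm26735, overlaps Sox4, and reads were counted without strand.

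Sox17 (chromosome 1, 4490931 to 4497354, minus strand) was low in these cells, yet it was the factor called without the block. Control values were 3.72, 3.80, 3.79 and 3.79 and GRHL2 values 3.92, 4.05, 3.95 and 3.90, so the groups did not overlap, as for 14.3% of all genes with GRHL2 higher and 9.47% with GRHL2 lower. The log2 fold change was 0.18 (SE 0.038, 95% interval 0.095 to 0.26) with an adjusted p of 0.0112 without the block and 0.00415 with it (limma), and 0.0286 by the exact two-sided permutation test. It was called with each sample left out in turn, with adjusted p from 0.0143 to 0.0370. The transcript Gm37587, on the opposite strand, overlaps the span of Sox17, and reads were counted without strand. Exons were not compared for this or the other overlaps given here. Low genes were called higher more often than abundant ones. With all genes divided into 5 equal sets by level, 17.3% were called higher and 3.59% lower in the set that holds Sox17 (values from 1.97 to 4.79), whereas in the set with the highest levels 3.54% were higher and 8.68% lower. Sox17 also marks endothelial cells. Of 12 endothelial markers, 10 had a row, and their summed level ran from 6.82 to 6.93 (log2) in control samples and from 7.02 to 7.21 in GRHL2 samples. Egfl7 (5.90 and 6.02) and Flt1 (4.89 and 5.45) were the highest of them. Without the block 3 of the 10 were called higher, where 10.5% of all genes were, and none lower (5 and none with the block). Flt1, a VEGF receptor gene, rose by 0.56 (SE 0.097, adjusted p = 0.00435, limma), Vwf by 0.21 (SE 0.029, adjusted p = 0.00129) and the SOX gene Sox7 by 0.053, a call lost without any one of GRHL2 replicate 1 or control replicates 1, 2 and 3 (adjusted p up to 0.0718). Pecam1 differed by -0.078 (adjusted p = 0.115) and Egfl7 by 0.12 (adjusted p = 0.336). Cdh5, the defining endothelial cadherin, was low at 1.23 ± 0.048 and 1.24 ± 0.050 (SD, n = 4), and Emcn and Erg had no row. The part of other cells in the Sox17 difference was not tested, and in bulk samples fewer cells of a type cannot be told apart from less RNA per cell.

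Among the homeobox factors, Onecut2 (chromosome 18, 64340020 to 64400987, plus strand), a cut-homeobox factor that acts with Onecut1 in hepatoblasts, had control values of 6.41, 6.53, 6.83 and 6.95. Its GRHL2 values were 6.71, 6.58, 7.17 and 7.21. Both groups were low in replicates 1 and 2 and high in replicates 3 and 4, and the groups overlapped broadly. Within pairs the GRHL2 sample was higher by 0.30, 0.048, 0.34 and 0.25. The log2 fold change of 0.24 had an SE of 0.16 and an adjusted p of 0.363 without the block, and an SE of 0.052 and an adjusted p of 0.00917 with it (limma).

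Onecut1 (chromosome 9, 74861921 to 74891781, plus strand) was the lowest of the factors. Control values were 1.78, 1.78, 1.84 and 1.79 and GRHL2 values 1.80, 1.85, 1.81 and 1.94. Its pairs differed by 0.019, 0.073, -0.034 and 0.15, so 3 of 4 were higher. The difference of 0.052 (95% interval -0.018 to 0.12) did not pass the test (adjusted p = 0.291 without and 0.225 with the block, limma). At about 9 reads per sample the rlog understates differences, and its part in this result was not tested. The lincRNA gene Gm20649 overlaps Onecut1 on the same strand. Onecut3, the remaining member of the family, was also low and rose from 2.45 ± 0.025 to 2.69 ± 0.11 (SD, n = 4; adjusted p = 0.00893, limma).

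Hhex (chromosome 19, 37434810 to 37440731, plus strand), a homeobox repressor needed for liver bud growth and bile duct formation, had control values of 8.50, 8.45, 8.81 and 8.84. Its GRHL2 values were 8.45, 8.22, 8.96 and 9.04. The GRHL2 sample was lower in pairs 1 and 2, by -0.050 and -0.23, and higher in pairs 3 and 4, by 0.15 and 0.20. The mean difference was 0.017 (SE 0.18, 95% interval -0.38 to 0.41; adjusted p = 0.965, or 0.878 with the block, limma), an interval that leaves room for a change in either direction. In replicates 3 and 4 alone the difference was 0.17 with an adjusted p of 0.0412, and in replicates 1 and 2 alone it was -0.14 with an adjusted p of 0.377. The test of the difference between these effects, run after seeing the values, gave 0.31 (SE 0.10) with a p of 0.0144 and an adjusted p of 0.832 (limma interaction term). No gene passed that test after adjustment, and 1094 genes, or 5.86%, had an unadjusted p under 0.05.

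Tbx3 (chromosome 5, 119670669 to 119684724, plus strand), a T-box repressor, had control values of 5.95, 6.27, 5.95 and 6.03 and GRHL2 values of 6.32, 6.57, 6.19 and 6.11. The GRHL2 sample was higher in every pair, by 0.36, 0.31, 0.23 and 0.085, while control replicate 2 lay above GRHL2 replicates 3 and 4. The log2 fold change was 0.25 (SE 0.10), with an adjusted p of 0.136 without the block and 0.00603 with it (limma). Unlike Sox9, Onecut2 and Hhex, Tbx3 had a lower mean in replicates 3 and 4 than in replicates 1 and 2 of each group. In the control samples this came from replicate 2, since replicate 1 (5.95) did not exceed replicate 3 (5.95) or replicate 4 (6.03). The span of the antisense gene Tbx3os1 overlaps that of Tbx3, and reads were counted without strand. Tbx3os1 itself was at the floor, at 0.83 in the control samples and 0.85 to 0.89 in the GRHL2 samples.

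Foxj1 (chromosome 11, 116330704 to 116335399, minus strand) was well expressed, at percentile 58.8 of all genes over the 8 samples, and was the only factor with a lower mean in the GRHL2 samples. Control values were 7.56, 7.54, 7.42 and 7.50, and GRHL2 values 7.45, 7.38, 7.50 and 7.39. The pairs differed by -0.11, -0.16, 0.081 and -0.11, so the third went the other way. The log2 fold change was -0.076 (SE 0.049, 95% interval -0.19 to 0.035), which did not pass the test (adjusted p = 0.334, or 0.265 with the block, limma).

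**Figure D2:**
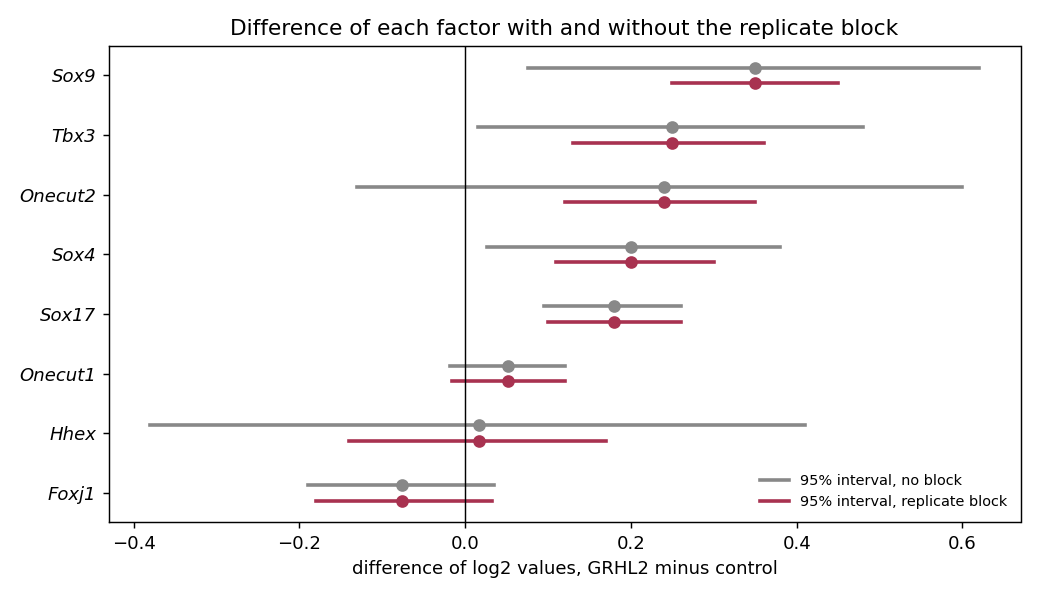
Difference of log2 values (GRHL2 minus control, horizontal axis) for 8 factors, with 95% intervals from limma without the block in grey and with the replicate number as a block in red. The block narrows the interval of Onecut2 from -0.13 to 0.60 to 0.12 to 0.35, whereas those of Sox17, Onecut1 and Foxj1 change little.

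The replicate numbers moved several of these factors as much as the plasmid did. Between replicates 3 and 4 and replicates 1 and 2, the mean difference over both groups was 0.51 for Hhex, at percentile 99.5 of all genes by size, 0.48 for Onecut2 (percentile 99.4) and 0.34 for Sox9 (percentile 97.9), against a median of 0.052 over all genes. For Hhex it was 0.35 in control and 0.67 in GRHL2 samples, and for Onecut2 it was 0.42 and 0.55. Tbx3 differed the other way, by -0.21. In Hhex and Onecut2 this difference was larger than that between plasmids, as it was for 44.2% of all genes. Sox17 hardly differed by number (-0.011). Grhl2 itself was also higher in replicates 1 and 2, and its pairs 1 to 4 differed by 1.61, 2.38, 1.23 and 1.61. Between plasmids, Sox4 differed by 0.14 within replicates 1 and 2 and by 0.27 within replicates 3 and 4. In the same order, the difference of Onecut2 was 0.17 and 0.30, that of Tbx3 0.33 and 0.16, and that of Sox17 0.22 and 0.14. None of these 4 differences between replicate sets passed the interaction test (adjusted p from 0.854 to 0.867, limma), and what sets the replicates apart was not tested.

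**Figure D3:**
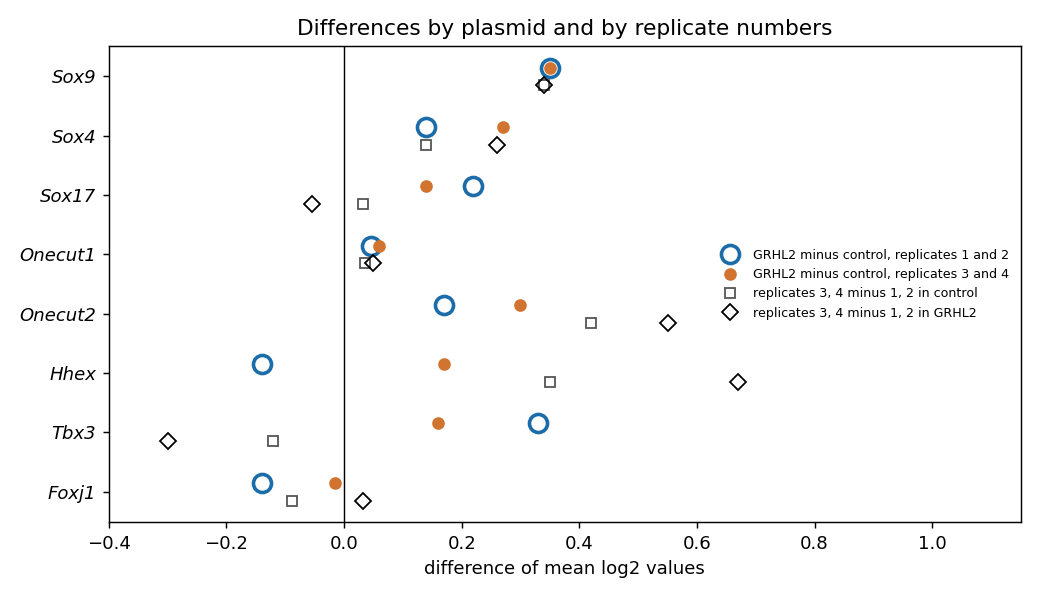
Differences of mean log2 values for 8 factors. Circles give GRHL2 minus control within replicates 1 and 2 (open blue) and within replicates 3 and 4 (filled orange), and squares and diamonds give replicates 3 and 4 minus replicates 1 and 2 in control and GRHL2 samples. For Hhex the plasmid differences, -0.14 and 0.17, lie on opposite sides of 0 and below the replicate differences of 0.35 and 0.67.

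By the likeness of values over the 8 samples (Pearson's r, given as a description and including the group difference), the genes closest to Sox9 were Tmem160 (r = 0.983), Bcl7a (0.976) and the nuclear receptor gene Nr5a2 (0.976). Those closest to Sox17 were Fam199x (0.994), Gcnt3 (0.993) and 2510009E07Rik (0.988). None of these 6 is one of the 9 listed symbols, and Nr5a2 belongs to the further hepatoblast and biliary factors described next.

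Other hepatoblast and biliary transcription factors were divided. Counts for this and the following lists stand against the 10.5% of all genes called higher and 5.91% called lower without the block, and the 18.2% and 13.9% with it. Among the lowest genes the background was higher, at 14.4% and 17.3% called higher in the lowest 2 of the 5 sets by level. Of 20 measured, 4 rose and 1 fell without the block, and 8 rose and 2 fell with it. Their median log2 fold change was 0.048. Tbx2, a close relative of Tbx3, rose from 2.93 ± 0.048 to 3.44 ± 0.20 (SD, n = 4; adjusted p = 0.00299, limma), and Prox1, a homeobox factor of early hepatoblasts, from 4.56 ± 0.035 to 5.03 ± 0.13 (SD, n = 4; adjusted p = 0.000760). The zinc finger factor gene Gata4 fell by 0.29 on the log2 scale, from 7.94 ± 0.074 to 7.65 ± 0.050 (SD, n = 4; adjusted p = 0.00456, limma). Hnf4a, the main hepatocyte regulator, differed by -0.0029 (SE 0.063).

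**Figure D4:**
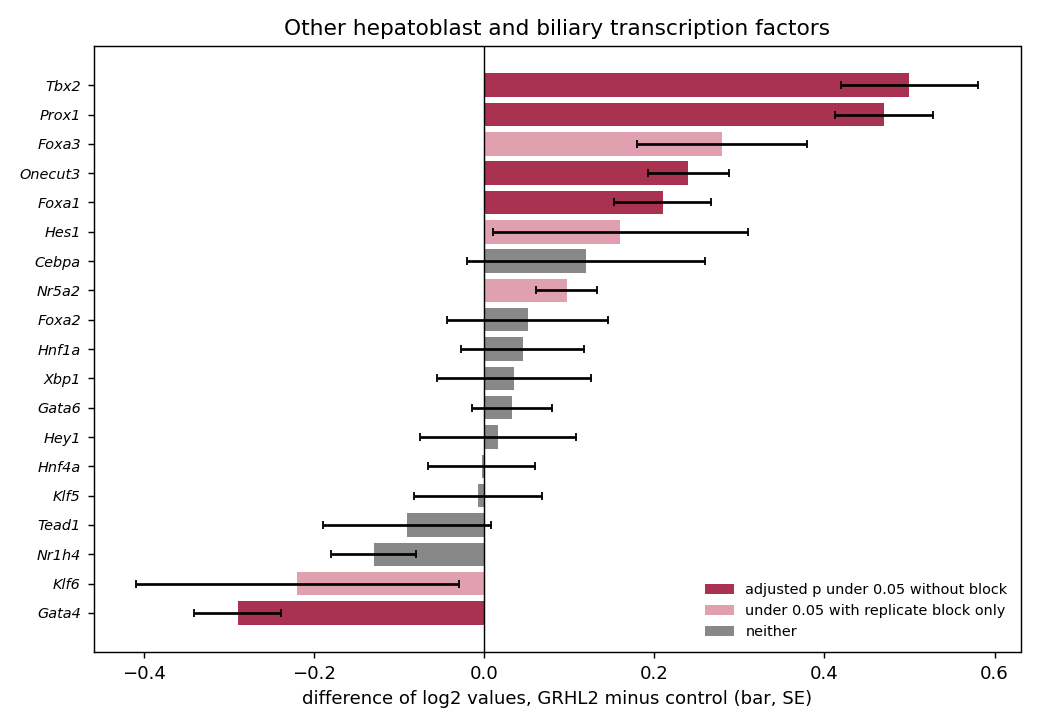
Difference of log2 values (GRHL2 minus control, bars, with SE) for 19 of the 20 other hepatoblast and biliary transcription factors, in dark red where called without the replicate block, in pink where called only with it and in grey otherwise. Tbx2 (0.50) and Prox1 (0.47) have the largest increases, and Gata4 (-0.29) is the only factor called lower without the replicate block.

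Among further SOX family genes, 5 of 13 rose and none fell without the block, and all 5 were low. With the block 7 rose and none fell. Sox8, a close relative of Sox9, went from 2.34 ± 0.0046 to 2.53 ± 0.094 (SD, n = 4; adjusted p = 0.0129, limma), Sox21 rose by 0.089 and Sox10 by 0.064. The Sox21 call was lost without any one of GRHL2 replicates 1 and 3 or control replicates 3 and 4 (adjusted p up to 0.0617). After a correction for the GC content of transcripts, 1 of the 13 was called higher, and the Sox10 difference became -0.0046. Of the more abundant ones, Sox11 (6.99 in control cells) differed by -0.043 (adjusted p = 0.662, or 0.524 with the block, limma), and Sox13 (7.80) by 0.16 (adjusted p = 0.266, or 0.0272 with the block).

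Of 23 genes of the Notch and YAP pathways, which act on Sox9 in liver, 5 rose and 1 fell, and with the block 8 rose and 2 fell, against 18.2% and 13.9% of all genes. The receptor gene Notch3 rose by 0.64 (SE 0.060, adjusted p = 0.000197, limma), the ligand gene Dll4 by 0.31 (adjusted p = 0.00960) and Tead3 by 0.29 (adjusted p = 0.00971), while the coactivator gene Maml1 fell by 0.24 on the log2 scale (adjusted p = 0.0150). Notch2, the receptor most tied to bile duct formation, had a difference of 0.053 (SE 0.065) and Yap1 one of 0.082 (SE 0.051).

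A list of motile cilium genes, which holds axoneme genes and also regulators that act above or beside Foxj1, had 16 of 25 genes in the table, with 6 up and 3 down. With the block 7 were up and 3 down. Of the regulators, Mcidas (by 0.20), Rfx2 (by 0.20), Trp73 (by 0.16) and Ccno rose, and Rfx3 fell by 0.19 on the log2 scale (adjusted p = 0.0286, limma). Myb and Foxn4 differed by -0.010 and 0.030 and were not called with or without the block. Mcidas and Trp73 were low, at 1.82 and 1.31 in control cells. Ccdc40, a ciliary axoneme gene, rose from 3.70 ± 0.029 to 4.46 ± 0.23 (SD, n = 4; adjusted p = 0.000747, limma), and Ccno, a cyclin gene, rose by 0.33. Tppp3 fell by 0.23 on the log2 scale. The axoneme genes Dnai1, Dnai2, Tekt1, Rsph1 and Rsph4a had no row.

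Pancreatic and endoderm factors around Pdx1 and Sox17 had 11 of 18 genes in the table, with 5 up and 1 down (7 and 1 with the block). Ptf1a, Neurog3, Nkx2-2, Pax4, Isl1, Rfx6 and Isx had no row, like Pdx1. The genes that rose without the block were low, as Mafa was (2.44 ± 0.026 to 2.68 ± 0.060, SD, n = 4; adjusted p = 0.00103, limma). With the block the abundant Hes1 (10.27 in control cells) was also called higher, by 0.16 (adjusted p = 0.0272, limma). Gata6 and Foxa2, abundant endoderm factors, differed by 0.033 and 0.051 without passing the test. Among T-box genes and HHEX partners, 6 of 16 rose and none fell (8 and 1 with the block), Eomes by 0.55 (adjusted p = 0.00124) and Tbx21 by 0.21 (adjusted p = 0.00700). After GC correction the same list had 4 up and 1 down. Of the genes called, Tbx4 (-0.74 in control cells), Tbx5 (1.13) and Tbx1 (1.55) were very low. Cdkn2a, a known target of Tbx3 repression, had no row.

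Cholangiocyte markers had a median difference close to that of the factors and held single genes with larger changes. Of 21 in the table, 9 rose and none fell (12 and none with the block), with a median log2 fold change of 0.20. Epcam rose by 1.75, Cldn4 by 1.71 and Ehf by 1.16. Hepatoblast and hepatocyte markers had 1 up (Ass1, by 0.30) and 1 down (Afp, by -0.21, adjusted p = 0.0124, limma) of 15, with a median of 0.0040. The Ass1 call was lost without any one of control replicates 1, 2 and 3 (adjusted p up to 0.0581). Genes of other cell types gave 2 up and 1 down of 9 stellate and mesenchymal markers (Vim, which BMEL cells express at 15.28, fell by 0.37 on the log2 scale) and 3 up of 10 neural and muscle genes (among them Neurog2 by 0.42 and Olig2 by 0.22). Of 10 blood cell markers 1 was called higher and none lower, with a median log2 fold change of -0.015. Their summed level ran from 6.84 to 6.98 (log2) in control samples and from 6.98 to 7.04 in GRHL2 samples, and the highest of them, Cd68 (6.08 and 6.25), had an adjusted p of 0.0559 without the block and 0.0205 with it (limma). With the block 2 of the 10 were higher and 1 lower. The defining blood gene Ptprc was at 0.90 ± 0.064 (SD, n = 4) in control samples.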

How the data were processed

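RNA-seq libraries came from 8 BMEL samples, 4 for each plasmid, and groups and replicate numbers were read from the sample titles. The 4 replicates of each plasmid were described as independent biological replicates. The sources list HISAT2 2.2.1, HTSeq 0.9.1 and DESeq2 1.40.2 in the submitters' processing notes, with mm10 and GRCm39. According to the methods, reads were counted on exons without strand, genes under 10 cumulated reads were removed, and DESeq2 rlog values were scaled by mean transcript length. That passage starts from public data, and it was taken to cover these samples.

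The deposited values are log2 values, although the table is named for FPKM: 4.81% are below 0. Their lower limit moved by 2.47 between 5 groups of genes by transcript length, and by 0.097 once log2 length was added. The plan foresaw a pseudocount only for linear values, so none was added. Read numbers are approximate, since GENCODE M21 lengths replaced those of the authors.

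limma 3.58.1 (R 4.3.3, mean-variance trend, two-sided, Benjamini-Hochberg over 18671 genes) was the main test. On simulated data with real means and spreads, 33 of 50 genes changed by 0.25, 86 of 100 changed by 0.5 and 50 of 50 changed by 1 (log2) were called, and 16 of 18471 unchanged genes. The simulated noise was independent between samples, without the shared deviations of the replicate numbers. These counts therefore do not show how the test behaves with such deviations. The factors are described with no test over the list, and factors and gene lists were chosen with earlier results of these data known. Named genes are the factors, Grhl2, up to 4 called genes per list with the largest change (the 2 highest genes where none was called), and the 3 genes most like Sox9 and each called factor. Genes that check the cell type, Mcidas, Trp73, Rfx3, Tbx4, Tbx5 and uncalled list genes given for comparison were picked after their values were seen. Some list genes are not reported here by name.

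Pairing rests on the replicate numbers in the labels. Deviations from group means of same-numbered samples correlated in every pair (Pearson's r across genes from 0.474 to 0.645). Different numbers within replicates 1 and 2 or within 3 and 4 also correlated (0.344 to 0.602). Numbers across these sets correlated negatively (-0.611 to -0.399), which follows from centring on group means once the others are positive. Alternatives were the replicate block, 2 scalings, a minimum mean of 0, log2 of the linear value plus 1, no trend, a batch term, a GC correction (lowess, 98.7% of genes) alone and with the block, and each sample left out. Replicates 1 and 2 alone, replicates 3 and 4 alone, and the interaction test were added after seeing the data.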

Additional observations from a re-analysis of the deposited data

Results flagged for a closer look

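A sample standing far from the rest of its group was sought with Dixon's gap ratio in 92 groups of 4 samples, covering the factors, Grhl2 and the named genes of the lists. It was found in 6 groups. Chance alone yields around 1 in 20, or 4.6. Among the biliary factors it was Sox17 in control replicate 1, the lowest control sample at 3.72, with the next at 3.79. The others were Ass1 in control replicate 2 (7.49, low), Vwf in control replicate 2 (2.19, high), Ccno (3.63, high) and Epcam (8.31, high) in GRHL2 replicate 2, and Sox21 in GRHL2 replicate 4 (1.60, low). Without control replicate 1, Sox17 was still called higher (0.16, adjusted p = 0.0370, limma).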

How the results depend on the processing

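The Sox17 call held under every alternative fitted to 7 or 8 samples, and was lost with 4 samples, in replicates 1 and 2 alone (0.22, adjusted p = 0.0893, limma) and in replicates 3 and 4 alone (0.14, adjusted p = 0.0528). Without the block, 1 factor was called, and 5 with the replicate block, with the batch term and with the GC correction joined to the block. In replicates 3 and 4 alone 4 were called, where 3715 of all genes (19.9%) were. In replicates 1 and 2 alone 0 were called, where 1360 of all genes (7.28%) were. With the paired fit (replicate block), Sox9 (0.35), Sox4 (0.20), Onecut2 (0.24) and Tbx3 (0.25) became called, and the same 4 did with the batch term, at the same values. With GC correction and block the values were 0.35, 0.20, 0.27 and 0.22. In replicates 3 and 4 alone, Sox9 (0.35), Sox4 (0.27), Onecut2 (0.30) and Hhex (0.17) were called, and Hhex turned to -0.14 in replicates 1 and 2. All-gene calls rose from 3061 to 5985 with the block, 5748 with the batch term and 5848 with GC correction and block. The share of higher calls was 63.9%, and 75.9% and 77.0% under the 2 scalings. With each sample left out, calls ran from 2017 to 2884 over all genes, from 1 to 3 among the factors (3 without GRHL2 replicate 1 and 2 without control replicate 4) and from 44 to 54, against 55, among list genes. List calls fell to 29 in replicates 1 and 2 alone. The difference ran from 0.28 to 0.45 for Sox9, 0.16 to 0.27 for Sox4, 0.15 to 0.20 for Sox17, 0.14 to 0.35 for Onecut2, 0.16 to 0.32 for Tbx3, -0.10 to -0.057 for Foxj1, 0.022 to 0.069 for Onecut1, and -0.11 to 0.16 for Hhex, which changed sign. Sox10 reversed to -0.0046 after GC correction, with and without the block. Fewer samples and the smaller residual spread follow from how these fits are built, and other causes were not tested. Depth is unknown, and Onecut1 and Sox17 are limited by low counts.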
